A study of Mus musculus with 6 samples.

Results

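The genes described are 8 matrix metalloproteinases, MMP1, MMP2, MMP3, MMP7, MMP9, MMP10, MMP13 and MMP14, and the inhibitors TIMP1 and TIMP2, which together make 10 of the 30543 genes in the deposited count table. They were taken from the table by Ensembl identifier. The set was selected on the log2 fold change of MMP13, which stood among the largest increases after KRT7 knockdown, and was completed with related genes when that result was known. The difference between si-KRT7 and si-Control cells in these 10 genes is therefore given as a description. The genes that passed the limits of the fit over the whole table are named. Those calls repeat the contrast that chose the set and are no independent test of it. RNA was sequenced from CFPAC-1 cells, an established human line from a ductal pancreatic adenocarcinoma (PAAD), that had received either a siRNA against KRT7, a keratin of simple epithelia (si-KRT7, 3 libraries), or a negative control (si-Control, 3 libraries). Both groups are the same line, carry the same transfection step and differ by the siRNA. The knockdown is transient. The study's supplement lists separately numbered siRNA duplexes against KRT7. The sources used here do not name the duplex that was sequenced or say whether all si-KRT7 libraries received the same duplex. The labels do not say whether the replicates were separate cultures, so the spread between them may be technical. The sample labels name the mouse and list the mouse build GRCm39, whereas all 30543 identifiers in the table are human.

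Matrix metalloproteinases are zinc-dependent endopeptidases that cut collagens, laminins and other proteins of the extracellular matrix, along with growth factors, receptors and each other. Most are secreted as inactive proenzymes and gain activity when the propeptide is removed, and TIMPs block the active enzymes by occupying the catalytic zinc. In pancreatic cancer they are studied for invasion through the basement membrane and for the dense collagenous stroma. The genes of MMP1, MMP3, MMP7, MMP10 and MMP13 lie close together in a cluster of metalloproteinase genes, whereas MMP2, MMP9, MMP14 and the TIMP genes lie elsewhere in the genome. No sequences, gene lengths or coordinates are given, because the annotation used here is that of the mouse. Levels are given in CPM, the counts scaled to a common library total after TMM normalization, which are comparable between libraries for a gene but not between genes.

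The libraries held 31932572 to 36315802 counts in si-Control cells and 28208896 to 36218243 in si-KRT7 cells. Of all counts, the 10 genes together took 0.122% to 0.124% in si-Control and 0.0967% to 0.110% in si-KRT7 libraries. One si-KRT7 library, replicate 2, stood apart from the other two. Across the genes tested its log2 CPM had a Pearson correlation of 0.982 with each of them, while replicates 1 and 3 had 0.992 with each other and si-Control libraries 0.991 to 0.992 among themselves. With each si-Control library replicate 2 had 0.986, so by this measure it was closer to si-Control than to its own group. Replicates 1 and 3 had 0.983 to 0.986 with the si-Control libraries, so replicate 2 was hardly nearer to si-Control than they were. The mean chi-square per gene between its counts and those of another library was likewise lower against si-Control (33.0 to 44.6) than against si-KRT7 replicates 3 and 1 (61.6 and 79.6). Both measures run over genes, and genes are not replicates. Values with and without replicate 2 are therefore set side by side. KRT7 was not looked up, since the table does not pair identifiers with names and only the 10 identifiers listed for these genes came with a symbol. For the same reason the depth of the knockdown, markers of the cell type and other genes of the proteolytic pathway were not analysed here.

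Of the 10 genes, 8 passed edgeR's filter on low counts and were fitted together with all 15736 genes tested. MMP13 and MMP1 were higher in every si-KRT7 library than in any si-Control library, and so was MMP7 by a smaller margin. TIMP1, TIMP2, MMP14 and MMP9 were lower in every si-KRT7 library than in any si-Control library. MMP10 overlapped between the groups. Among all genes tested, the groups did not overlap in 11.3% of genes that were higher and in 13.0% that were lower, against 3 and 4 of these 8, a comparison from which nothing is read because the contrast was known when the genes were chosen. The median log2 fold change was -0.07 over the 8 genes and 0.01 over all genes tested. A gene was called differentially expressed if it passed 2 limits in edgeR's quasi-likelihood test, 0.05 for the adjusted p and 1 for the absolute log2 fold change. Of the 8 genes 1 was called, MMP13, where 0.292% of all genes tested were. TIMP2 met the first limit and not the second. The share of all genes that met the first limit was 2.07%. Without si-KRT7 replicate 2, 7 of the 8 genes met the first limit, where 42.9% of all genes then tested did, and MMP13 and MMP9 met both, where 2.20% did. MMP10 was the gene that did not meet the first limit. Nothing is read from these counts either.

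**Figure D1:**
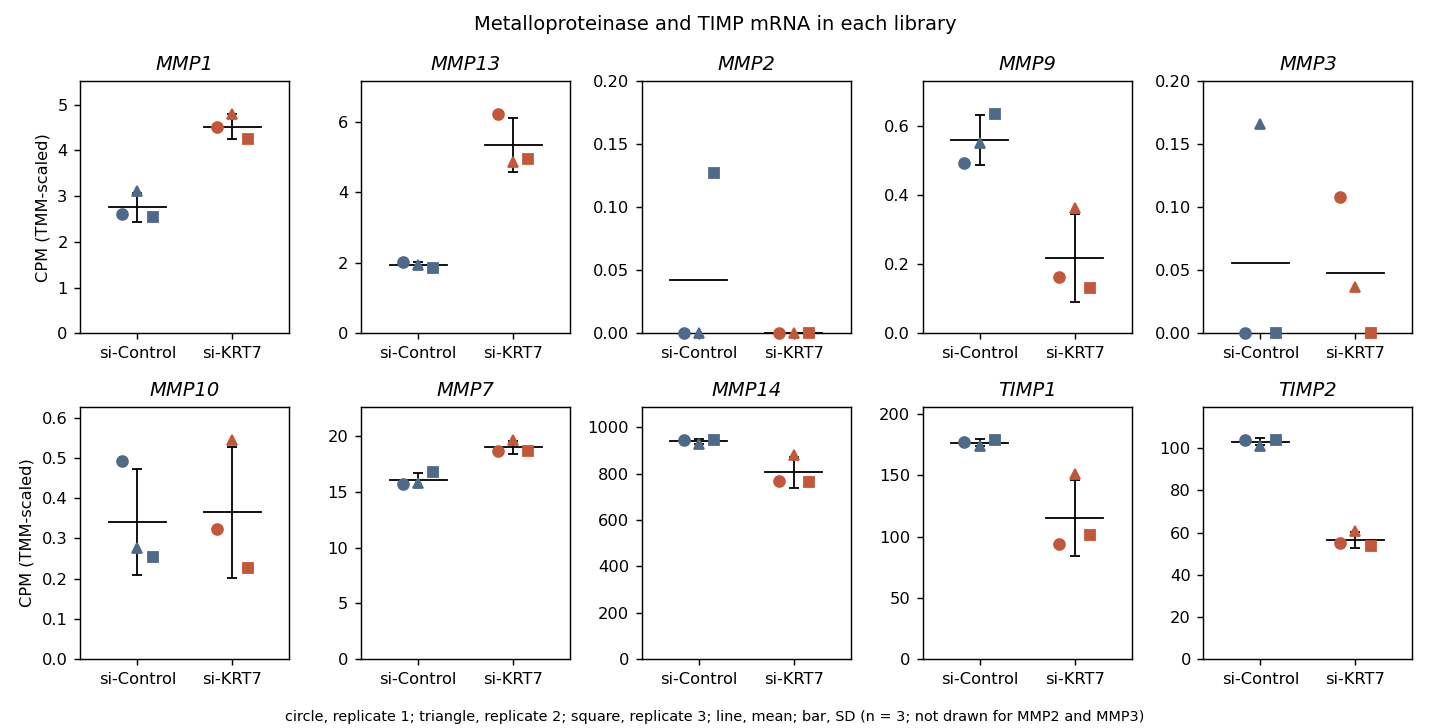
Level of each of the 10 genes in CPM with TMM scaling (vertical axis, starting at 0, a separate scale for each gene) in the 3 si-Control and 3 si-KRT7 libraries; points are libraries, lines means and bars SD. The groups are separate for MMP1, MMP13, MMP7, MMP9, MMP14, TIMP1 and TIMP2 and overlap for MMP10, while MMP2 and MMP3 sit at 0 to 6 counts per library.

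The collagenases cleave the triple helix of fibrillar collagen. MMP13 (ENSG00000137745), or collagenase 3, is best known from cartilage and bone and is also made by carcinomas. It had 70, 70 and 58 counts in si-Control replicates 1, 2 and 3, which is 2.03, 1.93 and 1.84 CPM. In si-KRT7 replicates 1, 2 and 3 it had 231, 134 and 152 counts, or 6.22, 4.87 and 4.93 CPM. All si-KRT7 libraries lay above all si-Control libraries, and the highest was replicate 1, at 321% of the si-Control mean against 252% and 255% for replicates 2 and 3. Mean levels were 1.94 ± 0.0926 CPM in si-Control and 5.34 ± 0.760 CPM in si-KRT7 cells (SD, n = 3 each). The log2 fold change was 1.47 (standard error 0.17), a 2.76-fold difference, and 0.330% of the genes tested had a larger one. Counting error alone gives a coefficient of variation of 12.3% at this depth in the si-Control libraries, more than the 4.78% observed, so the small SD of that group understates the error.

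The log2 fold change of MMP13 hardly depended on which library was left out, ranging from 1.34 without si-KRT7 replicate 1 to 1.52 without si-KRT7 replicate 2 or 3. Whether MMP13 counted as differentially expressed did depend on it. It was not called without si-Control replicate 1, 2 or 3, where its log2 fold changes were 1.50, 1.46 and 1.43 and where 6, 6 and 7 genes of the whole table were called. It was called without each of the si-KRT7 libraries, and without replicate 2 the whole table had 356 such genes in place of 46.

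MMP1 (ENSG00000196611), the interstitial collagenase, had 90, 113 and 80 counts in the si-Control libraries, or 2.61, 3.12 and 2.54 CPM. It had 168, 132 and 131 counts in the si-KRT7 libraries, or 4.52, 4.80 and 4.25 CPM. The groups did not overlap, and the si-KRT7 libraries lay close to each other, replicate 2 included. Mean levels were 2.76 ± 0.317 CPM in si-Control and 4.52 ± 0.274 CPM in si-KRT7 cells (SD, n = 3 each), with a log2 fold change of 0.71 (standard error 0.16). MMP13 and MMP1 thus both had higher values in si-KRT7 cells, with 3.82% of the genes tested above the log2 fold change of MMP1.

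MMP7 (ENSG00000137673), or matrilysin, is a small epithelial metalloproteinase without the hemopexin domain and is known from ductal pancreatic tumors. It had 542, 572 and 529 counts in the si-Control libraries and 695, 542 and 577 in the si-KRT7 libraries. The counts overlapped and the scaled levels did not: 15.7, 15.8 and 16.8 CPM in si-Control against 18.7, 19.7 and 18.7 CPM in si-KRT7 replicates 1, 2 and 3. The scaled groups were thus separate but close, and their order in replicate 2 came only with the scaling to its smaller total. The log2 fold change was 0.24 (standard error 0.09), and 21.1% of the genes tested had a larger one.

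MMP14 (ENSG00000157227) is a membrane-anchored metalloproteinase that cuts collagen at the cell surface and activates proMMP2. It had 32651, 33626 and 29801 counts in the si-Control libraries, which is 946, 929 and 947 CPM. In the si-KRT7 libraries it had 28593, 24257 and 23569 counts, or 770, 882 and 765 CPM. Relative to the si-Control mean, replicates 1 and 3 were at 81.8% and 81.3% and replicate 2 at 93.8%, nearer to si-Control but below each of its libraries. Mean levels were 941 ± 10.2 CPM in si-Control and 806 ± 66.3 CPM in si-KRT7 cells (SD, n = 3 each), with a log2 fold change of -0.22 (standard error 0.08). Without si-KRT7 replicate 2 it was -0.30.

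The gelatinases MMP2 and MMP9 degrade denatured collagen and the type of collagen found in basement membranes. MMP9 (ENSG00000100985) had 17, 20 and 20 counts in the si-Control libraries and 6, 10 and 4 in the si-KRT7 libraries, so every value rests on 20 reads or fewer. In CPM this was 0.493, 0.553 and 0.636 against 0.162, 0.364 and 0.130, with replicate 2 of si-KRT7 the highest of its group. The log2 fold change was -1.38 (standard error 0.46), past the fold limit but not the limit on the adjusted p. The sums of 57 and 20 counts give a ratio of 0.376, with a 95% exact interval for counting error only of 0.214 to 0.635. Without si-KRT7 replicate 2 the log2 fold change was -1.91, and MMP9 then met both limits.

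MMP2 (ENSG00000087245) was at the edge of detection. It had 4 counts in si-Control replicate 3 and 0 in each of the other 5 libraries. The 0 counts in si-KRT7 cells allow a level of up to 0.0314 CPM over the group by the floor of 3 counts, and up to 0.0386 CPM by the 95% exact interval. The 4 counts in si-Control cells correspond to 0.0392 CPM with an exact interval of 0.0107 to 0.100, which overlaps that of si-KRT7 cells, so no difference was detectable at this depth. MMP2 is the usual partner of MMP14 and TIMP2 at the cell surface, where TIMP2 held by MMP14 serves as the receptor for proMMP2. Here both partners had at least 1655 counts in every library, and MMP2 had almost none.

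The stromelysins MMP3 and MMP10 cut proteoglycans, laminin and fibronectin and activate other proMMPs. MMP3 (ENSG00000149968) had 0, 6 and 0 counts in the si-Control libraries and 4, 1 and 0 in the si-KRT7 libraries, and like MMP2 it did not pass the filter. MMP10 (ENSG00000166670) had 17, 10 and 8 counts in si-Control and 12, 15 and 7 in si-KRT7 cells. Its log2 fold change of 0.08 (standard error 0.48) was smaller than its error, and the direction changed to -0.30 without si-KRT7 replicate 2. The 35 and 34 counts of the groups give a ratio of 1.04 with a 95% exact interval of 0.629 to 1.72, and differences within that interval were not detectable at this depth.

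**Figure D2:**
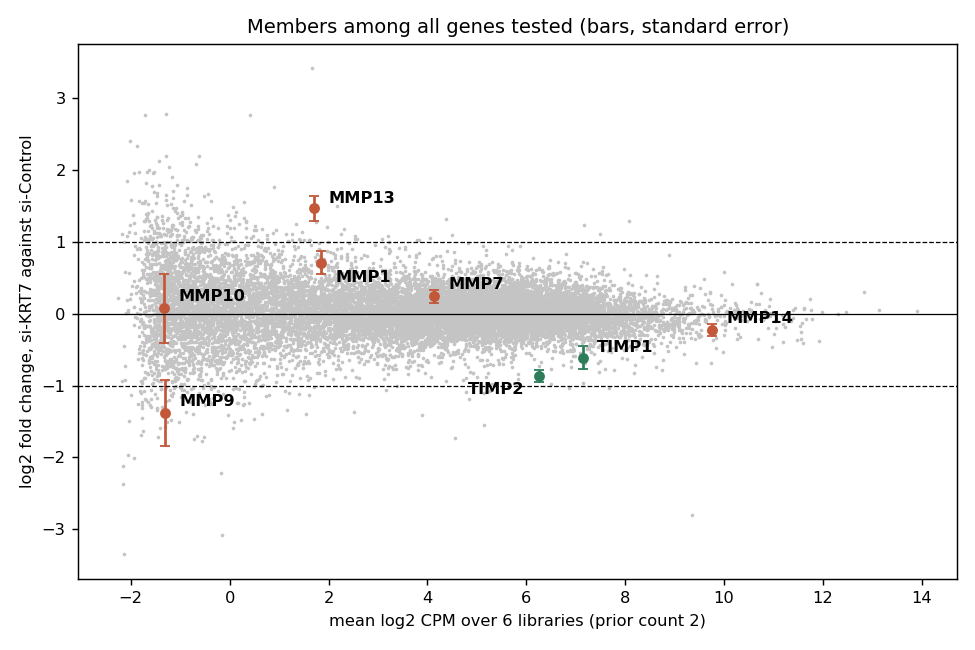
Log2 fold change of si-KRT7 against si-Control cells (vertical axis) against the mean log2 CPM over the 6 libraries (horizontal axis) for all 15736 genes tested (grey), with the 6 metalloproteinases tested in red and the TIMPs in green; bars are standard errors and dashed lines mark the fold limit. MMP13 (1.47) lies above the upper line, MMP9 (-1.38) below the lower line with a wide error, and TIMP2 (-0.87) just inside it.

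Both inhibitors varied little among the si-Control libraries, with coefficients of variation of 1.43% for TIMP1 and 1.47% for TIMP2. TIMP2 (ENSG00000035862), which inhibits most metalloproteinases including MMP14, had 3577, 3666 and 3275 counts in si-Control libraries, or 104, 101 and 104 CPM. In si-KRT7 replicates 1, 2 and 3 it had 2034, 1666 and 1655 counts, or 54.8, 60.6 and 53.7 CPM. All si-KRT7 libraries, replicate 2 included, lay between 52.1% and 58.8% of the si-Control mean. Mean levels were 103 ± 1.51 CPM in si-Control and 56.4 ± 3.70 CPM in si-KRT7 cells (SD, n = 3 each). The log2 fold change was -0.87 (standard error 0.08), between -0.93 and -0.84 with each library left out, and 1.23% of the genes tested had a lower one. TIMP2 met the limit on the adjusted p with all libraries but not without si-Control replicate 1, 2 or 3, where its log2 fold changes were -0.87, -0.88 and -0.87.

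TIMP1 (ENSG00000102265), which inhibits MMP9 and many other metalloproteinases and binds proMMP9, had 6122, 6301 and 5633 counts in the si-Control libraries, or 177, 174 and 179 CPM. In the si-KRT7 libraries it had 3502, 4153 and 3117 counts, or 94.3, 151 and 101 CPM. Relative to the si-Control mean, replicates 1 and 3 were at 53.3% and 57.2%, whereas replicate 2 was at 85.4%. Mean levels were 177 ± 2.52 CPM in si-Control and 115 ± 31.0 CPM in si-KRT7 cells (SD, n = 3 each). The log2 fold change was -0.62 (standard error 0.16), which became -0.86 without replicate 2. The spread of the si-KRT7 libraries, a coefficient of variation of 26.8%, was far above the 1.67% that counting error gives, so depth did not limit this value. TIMP1 lies within an intron of SYN1 on the opposite strand, and the sources do not say whether reads were counted by strand. In bulk RNA, fewer cells that express a gene and less mRNA per cell cannot be told apart, which applies to each of these levels.

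Within the si-KRT7 group the genes thus differed in how replicate 2 related to the other libraries. On the log2 scale, replicate 2 lay above the mean of replicates 1 and 3 by 0.63 for TIMP1, 1.33 for MMP9 and 0.20 for MMP14, toward the si-Control level in each case, while the si-Control libraries spanned 0.04, 0.37 and 0.03. The gap of MMP9 rests on 6, 10 and 4 counts in si-KRT7 replicates 1, 2 and 3, whose exact intervals for counting error overlap. For TIMP2 the gap was 0.16, also toward si-Control and above the si-Control span of 0.04, with replicate 2 at -0.77 and replicates 1 and 3 at -0.91 and -0.94. For MMP1 and MMP7 replicate 2 lay 0.13 and 0.07 above the others, away from si-Control and within the si-Control ranges of 0.30 and 0.10. For MMP13 it lay 0.18 below, toward si-Control, where the si-Control libraries spanned 0.14, and replicates 2 and 3 were nearly level. For MMP10, with 7 to 17 counts per library, it lay 1.01 above the others, where the si-Control libraries spanned 0.95. The part of the difference between replicate 2 and the other libraries in these values was not tested.

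**Figure D3:**
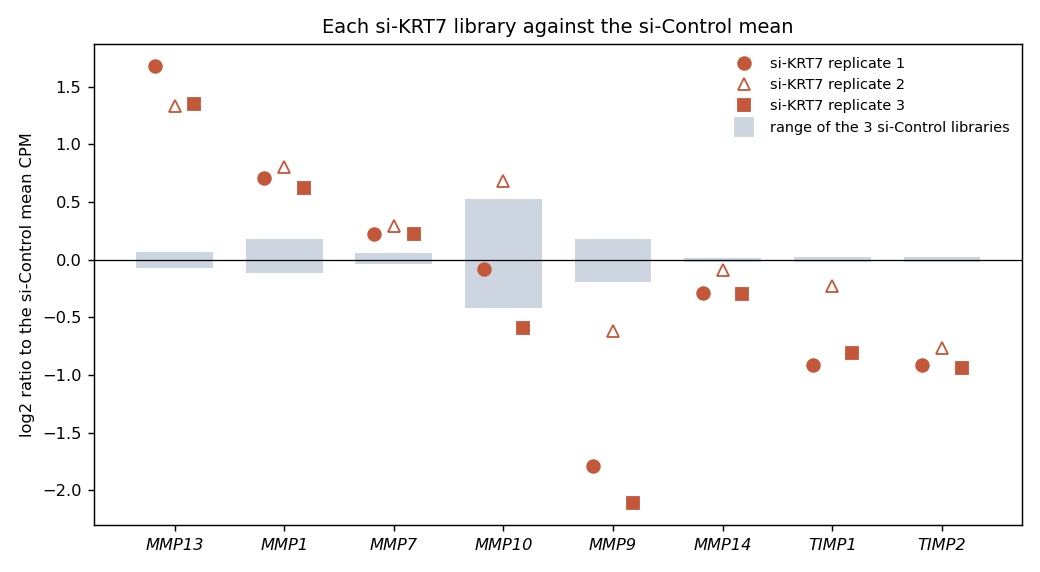
The vertical axis gives the log2 of the CPM in a si-KRT7 library over the si-Control mean for the 8 genes tested, with the range of the 3 si-Control libraries in grey-blue and replicate 2 as open triangles. Replicate 2 lies nearer to si-Control than both other si-KRT7 libraries for TIMP1 (-0.23 against -0.91 and -0.81), MMP9, MMP14, TIMP2 and, by a small margin from replicate 3, MMP13, and farther from it for MMP1 and MMP7.

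Because a metalloproteinase acts only as far as its inhibitors leave it free, counts of a proteinase and an inhibitor were also set against each other within each library. Such a ratio does not depend on the library total or on TMM scaling, but its absolute size depends on gene length and says nothing of protein or activity. The MMP14/TIMP2 ratio was 9.13, 9.17 and 9.10 in si-Control replicates 1, 2 and 3 and 14.1, 14.6 and 14.2 in those of si-KRT7. The libraries within each group were nearly alike, replicate 2 of si-KRT7 included, although both genes were lower in si-KRT7 cells. The mean log2 ratio was 3.19 ± 0.01 (SD, n = 3) in si-Control and 3.84 ± 0.03 (SD, n = 3) in si-KRT7 cells, a difference of 0.65 or 1.56-fold.

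The MMP13/TIMP1 ratio was 0.0114, 0.0111 and 0.0103 in the si-Control libraries. It was 0.0660, 0.0323 and 0.0488 in si-KRT7 replicates 1, 2 and 3, with all libraries above si-Control and replicate 2 the lowest. The difference in the mean log2 ratio was 2.10, or 4.30-fold, with an SD of 0.08 in si-Control and 0.52 in si-KRT7 cells (n = 3 each). The MMP9/TIMP1 ratio went the other way, with mean log2 ratios of -8.31 ± 0.18 (SD, n = 3) in si-Control and -9.16 ± 0.45 (SD, n = 3) in si-KRT7 cells. That difference of -0.85 rests on the few reads of MMP9. These pairs follow from the same values that were used to choose the genes and are not independent of them. The MMP2/TIMP2 ratio was not formed, since MMP2 had 0 counts in 5 libraries.

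**Figure D4:**
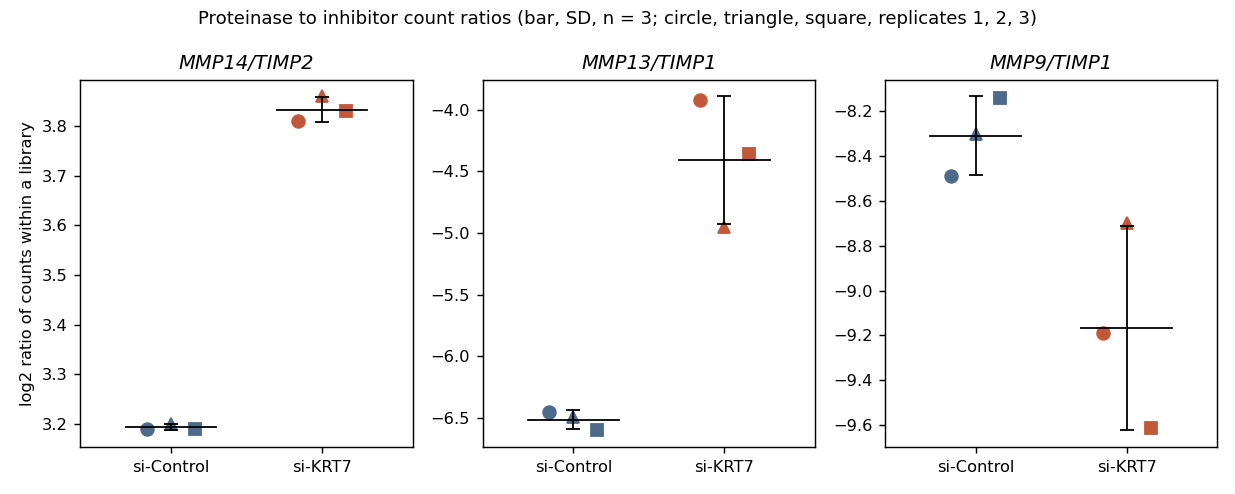
Log2 ratio of the counts of a metalloproteinase to those of a TIMP within each library (vertical axis, not starting at 0, a separate scale for each pair) in si-Control and si-KRT7 cells; points are libraries and bars SD (n = 3). MMP14/TIMP2 (3.19 against 3.84) and MMP13/TIMP1 are higher in si-KRT7 cells and MMP9/TIMP1 is lower.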

How the data were processed

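RNA-seq of 3 si-Control and 3 si-KRT7 libraries of CFPAC-1 cells was used. Polyadenylated RNA was captured, copied from random primers and sequenced on the DNBSEQ platform. The deposited table holds the authors' raw counts, whole numbers of reads for every gene in every library. The submitters' processing notes list STAR 2.7.11b and GRCm39; the counting tool and annotation are not given in the sources used here. None of the identifiers (0 of 30543) matched the mouse name tables used here, so only the 10 members, listed by identifier with their symbols, were named, and the planned marker list, pathway list and genes most like MMP13 were not analysed. Columns headed NC and Si were matched to si-Control and si-KRT7 by replicate number. No per-sample column was left unused.

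The fit used edgeR 4.0.16 in R 4.3.3: filterByExpr, TMM, glmQLFit, glmQLFTest and Benjamini-Hochberg adjustment over all genes tested. The limits, 0.05 for the adjusted p and 1 for the absolute log2 fold change, are those the study gives for its cohorts. Standard errors are the fold change over the square root of F and approximate. Intervals are 95% exact Poisson and, like the floor of 3 counts, cover counting error only. Alternatives used DESeq2 1.42.0, limma 3.58.1 (voom with sample quality weights), other filters and scalings, and each library left out. The tests were checked on simulated counts with 200 changed genes. For edgeR, 95% of them met the limit on the adjusted p at 2-fold changes and 100% at 4-fold changes. False calls made up 3.55% and 6.10% of the genes meeting it, and up to 7.51% with the other tools. The simulation gave all genes the same dispersion and set no library apart, unlike si-KRT7 replicate 2 here, so it does not cover that case. Its changed genes were drawn only from genes above a limit on the mean count. MMP2, MMP3, MMP9 and MMP10 lie below that limit, so the shares recovered do not apply to them. The members, lists and alternatives were chosen with earlier results of these data known.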

Additional observations from a re-analysis of the deposited data

How the results depend on the processing

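The log2 fold changes of MMP1, MMP7, MMP9, MMP13, MMP14, TIMP1 and TIMP2 and the 3 count ratios kept their direction under every alternative computed. They also moved by less than 1 SD of the replicates. That SD includes the library left out, so leaving a library out could hardly move a value past it. Nothing is read from that limit for those alternatives. Without si-KRT7 replicate 2, TIMP1 went from -0.62 to -0.86 and MMP9 from -1.38 to -1.91. The log2 fold change of MMP10, 0.08, reversed to -0.29 with limma-voom and sample quality weights. It also reversed to -0.06 and -0.09 without si-Control replicates 2 and 3 and to -0.30 without si-KRT7 replicate 2. It was 0.44 without si-Control replicate 1 and rests on 7 to 17 counts per library. The number of genes past both limits, 46, was 84 with the DESeq2 Wald test, 443 with limma-voom and sample quality weights, 154 without a filter on low counts and 25 with the replicate block, and ran from 6 to 356 with each library left out. The cause was not tested. Of the members, 1 passed both limits, and with each library left out 0 to 2 did. With sample quality weights 2 did, MMP13 and MMP9, and the same 2 without si-KRT7 replicate 2, to which those weights gave 0.0973 where the other libraries had 1.20 to 2.11. Among all genes, 443 of 15736 passed both limits with those weights and 356 of 16202 (2.20%) without that library. Nothing is read from the member counts. The labels give the same-numbered libraries nothing in common beyond the number. Across genes, the correlations of their deviations from the group means were 0.0520, -0.0798 and -0.0728. With 3 libraries per group and si-KRT7 replicate 2 apart, these correlations cannot show whether the libraries were paired. With the replicate block the log2 fold change of MMP13 was 1.46. Depth limits MMP2, MMP3, MMP9 and MMP10, which had 20 counts or fewer in every library.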
